A study of Mus musculus with 15 samples.

Results

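Chemokines are small secreted proteins that draw leukocytes to a tissue. The 10 chemokine genes described here, Ccl2, Ccl3, Ccl4, Ccl5, Ccl6, Ccl7, Ccl12, Cxcl9, Cxcl10 and Cxcl16, were taken by gene symbol from 2 tables of normalized transcript abundance, of 36264 and 36257 genes. The 15 libraries came from the substantia nigra of 8 C57Bl/6J mice, collected 3 weeks after an adeno-associated virus was injected into 1 side. In 3 mice the virus carried the microRNA miR-181 at a dose of 1.65e10 vector genomes, and in the other set, of 5 mice, it carried green fluorescent protein (GFP) at 1e10 vector genomes. Both vectors used hSYN1, the human synapsin promoter, which is active in neurons. The side that received no virus served as the control within each animal. The miR-181 set gave 3 libraries of injected and 3 of uninjected sides, and the GFP set gave 4 and 5, since GFP mouse 5 contributed its uninjected side alone.

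What a side received limits each comparison. The control sides were not injected at all, so the needle, the virus and its cargo cannot be told apart within a set. Between the sets, cargo, dose, read length (75 bases for miR-181 and 50 for GFP), sequencer and library preparation changed together and cannot be told apart either. Libraries came from pieces of tissue, so fewer cells of a type and less RNA per cell cannot be told apart. Values are abundances per length of transcript, scaled per library by the authors in each set separately. The depth of the libraries is unknown. Th, tyrosine hydroxylase of dopamine neurons, was between 171 and 604 in all 15 libraries, so tissue with dopamine neurons was present in each. Both libraries of GFP mouse 1 stood apart, with the pituitary hormone transcripts Prl and Gh making up 0.227% of the injected and 4.7% of the uninjected library. Tph2, a serotonin neuron enzyme, lay between 22.1 and 54.9 in miR-181 mice and at 1.06 or less in GFP mice.

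Chemokines act through receptors on leukocytes that couple to G proteins, and most receptors bind several of them. Cxcl9 and Cxcl10 are ligands of Cxcr3, which is carried by activated T cells and natural killer cells, and both genes are induced by interferon. Ccl3, Ccl4 and Ccl5 attract T cells and macrophages. Ccl2, Ccl7 and the mouse protein Ccl12 bind Ccr2, which brings monocytes out of the blood. Ccl6, found in rodents, binds Ccr1, and Cxcl16 is made as a membrane protein whose receptor is Cxcr6 on T cells.

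The 10 genes lie in 4 places of the GRCm38 genome. Cxcl9 (chr5:92321347-92328079) and Cxcl10 (chr5:92346638-92348889) are neighbours on the minus strand of chromosome 5. On chromosome 11, Ccl2 (chr11:82035571-82037453), Ccl7 (chr11:82045712-82047525) and Ccl12 (chr11:82101845-82103400) follow each other on the plus strand. Ccl5 (chr11:83525778-83530518), Ccl6 (chr11:83587882-83593087), Ccl3 (chr11:83647844-83649355) and Ccl4 (chr11:83662584-83664683) form the next group, the first 3 on the minus strand and Ccl4 on the plus strand. Cxcl16 (chr11:70453983-70459984, minus strand) lies apart from both groups on chromosome 11 and overlaps Zmynd15. Of all stretches of 31 bases in Cxcl16 transcripts, 18.5% also occur in Zmynd15, and 4.47% of those of Cxcl10 occur in Art3. In the remaining members the shared part was at most 1.02%.

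RefSeq promoters, from 250 bases before to 50 bases after the gene start on GRCm38.p6, were at hand for 5 members, Cxcl9, Cxcl10, Ccl12, Ccl6 and Ccl3. Those of Cxcl10, Cxcl9 and Ccl12 are printed because, of these 5 members, they had the largest log2 changes in both sets below. Each is read 5′ to 3′ in the direction of the gene, Cxcl10 (chr5:92348840-92349139) and Cxcl9 (chr5:92328030-92328329) from the minus strand and Ccl12 (chr11:82101595-82101894) from the plus strand. Capitals mark matches to 4 motifs searched on both strands: the interferon-stimulated response element (GAAA, any 2 bases, GAAA), the gamma-activated site TTCNNNGAA, the AP-1 site TGANTCA and the NF-kB consensus.

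Cxcl10: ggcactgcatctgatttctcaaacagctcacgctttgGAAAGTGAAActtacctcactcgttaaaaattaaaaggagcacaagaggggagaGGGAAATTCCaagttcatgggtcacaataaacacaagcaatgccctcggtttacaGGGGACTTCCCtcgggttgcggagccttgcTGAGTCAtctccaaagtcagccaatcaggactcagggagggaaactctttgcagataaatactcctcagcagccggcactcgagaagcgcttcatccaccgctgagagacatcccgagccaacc
Cxcl9: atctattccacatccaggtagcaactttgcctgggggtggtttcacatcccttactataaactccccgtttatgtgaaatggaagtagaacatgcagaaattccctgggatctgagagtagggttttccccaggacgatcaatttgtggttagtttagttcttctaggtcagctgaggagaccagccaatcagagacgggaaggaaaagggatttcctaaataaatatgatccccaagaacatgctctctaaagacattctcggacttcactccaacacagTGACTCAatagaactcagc
Ccl12: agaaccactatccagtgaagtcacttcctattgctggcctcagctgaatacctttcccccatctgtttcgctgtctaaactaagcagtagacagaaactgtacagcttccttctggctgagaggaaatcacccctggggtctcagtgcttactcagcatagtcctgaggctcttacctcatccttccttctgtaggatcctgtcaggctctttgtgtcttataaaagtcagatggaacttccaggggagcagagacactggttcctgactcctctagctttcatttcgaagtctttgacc

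The Cxcl10 window held the response element at -213 to -204 from the gene start, the NF-kB consensus at -159 to -150 and again, in overlapping matches, at -104 to -94, and the AP-1 site at -74 to -68. The Cxcl9 window held the AP-1 letters alone, at 32 to 38 after the start. Ccl12, Ccl6 and Ccl3 held none of these letters. Only exact matches were marked, so sites with other letters or outside these windows would be missed. Among all 32851 promoters of 300 bases, 3.44% held the response element, 8.3% the gamma-activated site, 7.81% the AP-1 site and 8.46% the NF-kB consensus.

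On the side injected with the miR-181 vector, 9 of the 10 chemokine genes rose against the uninjected side by limma at an adjusted p under 0.05, where 4.39% of all 15453 genes tested were called higher. The median change of the 10 genes was 3.18 on the log2 scale, beside 0.0035 for all genes tested. The 10 genes were chosen with earlier results of these data known. The values over all genes therefore give a scale, and the set was not tested against them. In all 10, every injected library lay above every uninjected library, which held for 16.0% of all genes tested. The uninjected mean was at least 1 for 6 of them. Ccl2, Ccl4, Ccl7 and Cxcl9 passed the filter on low values, a mean of 1 over all libraries, through their injected libraries. Fold changes below are on the scale of log2(abundance + 0.5), which understates the change of low genes.

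**Figure D1:**
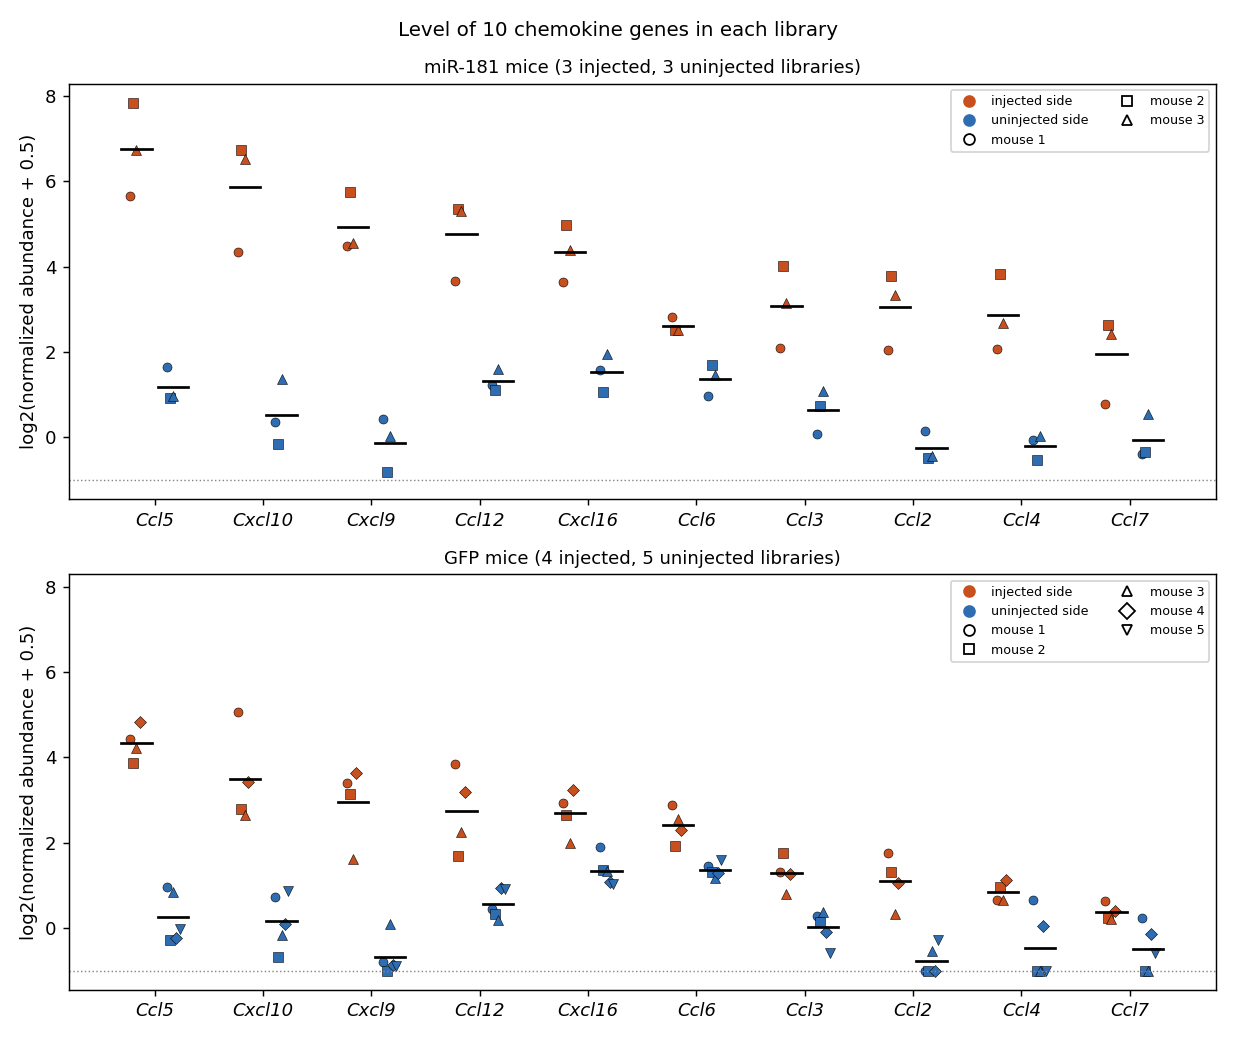
Level of each chemokine gene in each library, as log2(abundance + 0.5) on the vertical axis, for miR-181 mice (top) and GFP mice (bottom); orange points are injected sides, blue points uninjected sides, the point shape gives the mouse, black lines are means, and the dotted line is the position of an abundance of 0. In miR-181 mice all orange points lie above all blue points of the same gene, and in GFP mice they do so in 8 of 10 genes.

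The Cxcr3 ligands were among the largest changes, and were at trace levels on uninjected sides. Cxcl10 had an abundance of 19.9, 106 and 91.8 on the injected sides of miR-181 mice 1, 2 and 3, against 0.784, 0.394 and 2.06 on their uninjected sides. The rise was 5.35 ± 0.67 log2 units (SE; limma adjusted p = 0.00995). Cxcl9 had 21.8, 52.8 and 23.0 on the injected sides, against 0.844, 0.0681 and 0.515 on the uninjected sides, a rise of 5.05 ± 0.43 (adjusted p = 0.00303). Mouse 2 was the highest injected library for both genes, and for both genes it was also the lowest uninjected library. When uninjected mouse 1 or 2 was left out, Cxcl10 did not pass (highest limma adjusted p = 0.0601), while Cxcl9 passed whichever library was left out. Art3, which overlaps Cxcl10, was not called in miR-181 mice, at 12.6 ± 0.292 on injected and 11.1 ± 0.787 on uninjected sides (SD, n = 3 each; log2 change 0.18).

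Of the attractants of T cells and macrophages, Ccl5 reached the highest level of all 10 genes. Its abundance was 49.8, 229 and 106 on the injected sides, against 2.64, 1.40 and 1.47 on the uninjected sides. The rise of 5.56 ± 0.51 log2 units (limma adjusted p = 0.00374) was the third largest of the 15453 genes tested, and it passed whichever library was left out. Ccl3 and Ccl4, known as macrophage inflammatory proteins, also rose, and on injected sides they stayed well below Ccl5. Ccl3 had 3.77, 15.7 and 8.35 on the injected sides, against 0.562, 1.15 and 1.62 on the uninjected sides, a rise of 2.45 ± 0.49 (adjusted p = 0.0379). Ccl4 had 3.69, 13.7 and 5.88, against 0.457, 0.188 and 0.519, a rise of 3.05 ± 0.44 (adjusted p = 0.0146). Both depend on single libraries. Ccl3 passed in 1 of 6 fits that left out a library, only without injected mouse 1, and did not pass without the filter on low values (adjusted p = 0.0909) or the intensity trend (adjusted p = 0.0731). Ccl4 passed in 2 of 6, and was lost without injected mouse 3 or any of the uninjected mice 1, 2 and 3 (highest adjusted p = 0.0778).

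Of the Ccr2 ligands, Ccl12 was the most abundant. It had 12.1, 40.4 and 38.8 on the injected sides, against 1.83, 1.64 and 2.55 on the uninjected sides, a rise of 3.46 ± 0.44 log2 units (limma adjusted p = 0.0105). Its call ended without uninjected mouse 1 or 2 (highest adjusted p = 0.0646). Ccl2, the best known monocyte attractant, had 3.66, 13.3 and 9.51 on the injected sides, against 0.608, 0.213 and 0.236 on the uninjected sides, a rise of 3.32 ± 0.45 (adjusted p = 0.0121). It passed in 2 of 6 fits with a library left out and was lost without the same libraries as Ccl4 (highest adjusted p = 0.0705). Ccl7 had 1.21, 5.69 and 4.88, against 0.265, 0.290 and 0.964, and its estimate of 2.0 ± 0.53 did not pass (adjusted p = 0.0795). Its injected and uninjected libraries did not overlap, and without injected mouse 1, the lowest of the injected sides, it passed (adjusted p = 0.0064).

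Cxcl16 and Ccl6 were the chemokines with the highest uninjected means, and Ccl6 had the smallest change of all 10. Cxcl16 had 12, 31 and 20.3 on the injected sides, against 2.48, 1.60 and 3.34 on the uninjected sides, a rise of 2.81 ± 0.36 log2 units (limma adjusted p = 0.0105). It was lost without injected mouse 3 or without uninjected mouse 1 or 2 (highest adjusted p = 0.0587). Zmynd15, the overlapping gene, was also higher, at 2.18 ± 0.141 on injected and 0.532 ± 0.173 on uninjected sides (SD, n = 3 each; log2 change 1.39, adjusted p = 0.0218), and was lost in 5 of 6 fits with a library left out. The library kit kept strand, but the strand setting of the quantification is not stated in the sources used here, so reads of these overlapping genes may have been shared. Ccl6 had 6.5, 5.24 and 5.17 on the injected sides, against 1.47, 2.72 and 2.26 on the uninjected sides, a rise of 1.23 ± 0.21 (adjusted p = 0.0236). Under the mouse block Ccl6 did not pass (adjusted p = 0.0526), nor without the filter on low values (adjusted p = 0.0651), and it passed in 1 of 6 fits with a library left out, that without injected mouse 1.

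The count of chemokine genes called in miR-181 mice depended on single libraries. It was 4 without injected mouse 3, 2 without uninjected mouse 1, 2 without uninjected mouse 2 and 5 without uninjected mouse 3. It was 10 without injected mouse 1 and 7 without injected mouse 2. The genes still called in each of these fits were Ccl5 and Cxcl9. With mouse as a block the count was 8, with Ccl6 lost.

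The GFP vector was also followed by a rise of chemokine genes, and fewer members could be tested. Of the 10 genes, 7 had a mean of at least 1 and were tested, and 6 of these rose by limma at an adjusted p under 0.05, where 1.34% of all 15274 genes tested were called higher. The median change of the 7 genes tested was 2.18 on the log2 scale, beside 0.0046 for all genes tested. Here too the members were chosen with earlier results known, and the set was not tested against all genes. Injected and uninjected libraries did not overlap in 8 of the 10 genes, namely the 7 tested and Ccl2, which was not tested. With injected libraries higher, the same held for 3.29% of all genes tested. The uninjected mean was at least 1 for 3 members, Ccl6, Ccl12 and Cxcl16, and the others that were tested passed the filter through their injected libraries.

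Cxcl10 had an abundance of 32.9, 6.39, 5.82 and 10.2 on the injected sides of GFP mice 1 to 4, against 1.16, 0.13, 0.387, 0.562 and 1.33 on the uninjected sides of mice 1 to 5. The rise was 3.31 ± 0.50 log2 units (limma adjusted p = 0.00992). Cxcl9 had 10.1, 8.27, 2.55 and 11.9 on the injected sides, against 0.0795, 0, 0.574, 0.0499 and 0.0388 on the uninjected sides, a rise of 3.64 ± 0.41 (adjusted p = 0.00199; 0.0527 with mouse as a block). Mouse 3 had both the lowest injected and the highest uninjected value of Cxcl9. Both genes passed whichever single library was left out. Art3 was not called in GFP mice, at 12.5 ± 4.7 on injected (n = 4) and 9.25 ± 2.14 on uninjected sides (n = 5; SD), with a log2 change of 0.37.

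Ccl5 was again the most abundant on average, with 21.1, 14.1, 18.1 and 27.9 on the injected sides, against 1.45, 0.329, 1.3, 0.357 and 0.486 on the uninjected sides. Its rise of 4.08 ± 0.31 log2 units (limma adjusted p = 0.000401) held with mouse as a block (adjusted p = 0.00454) and whichever library was left out. Ccl3 was far lower, at 1.98, 2.88, 1.24 and 1.89 against 0.708, 0.604, 0.796, 0.435 and 0.172, and its estimate of 1.26 ± 0.28 did not pass (adjusted p = 0.0661; 0.0412 without the intensity trend). No injected library of Ccl3 overlapped an uninjected one. Ccl4 had too low a mean to be tested, and its groups overlapped, with 1.07, 1.45, 1.07 and 1.67 on the injected sides against 1.07, 0, 0, 0.528 and 0 on the uninjected sides.

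Of the Ccr2 ligands, Ccl12 was tested and the other members were too low. Ccl12 had 13.9, 2.70, 4.27 and 8.60 on the injected sides, against 0.856, 0.764, 0.642, 1.41 and 1.39 on the uninjected sides, a rise of 2.18 ± 0.40 log2 units (limma adjusted p = 0.0249). Under the mouse block it did not pass (adjusted p = 0.0532), nor without both libraries of mouse 1 (0.0856), nor without the filter on low values (0.0586). Single libraries ended its call too, namely injected mouse 1 or 4 and uninjected mouse 2, 3 or 5. Ccl2 had 2.86, 2.0, 0.747 and 1.59 on the injected sides, against 0, 0, 0.185, 0 and 0.319 on the uninjected sides, with no overlap. Without the filter the log2 change of Ccl2 was 1.88 (limma adjusted p = 0.0244), that of Ccl4 1.31 (0.255) and that of Ccl7 0.87 (0.324). Ccl7 had 1.04, 0.680, 0.667 and 0.811, against 0.669, 0, 0, 0.411 and 0.162, and the groups overlapped.

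Cxcl16 and Ccl6, the members with the highest uninjected means, changed least among those called. Cxcl16 had 7.10, 5.73, 3.47 and 8.93 on the injected sides, against 3.22, 2.06, 2.02, 1.60 and 1.54 on the uninjected sides, a rise of 1.36 ± 0.26 log2 units (limma adjusted p = 0.0319). Ccl6 had 6.93, 3.30, 5.38 and 4.39, against 2.26, 1.98, 1.76, 1.94 and 2.53, a rise of 1.05 ± 0.19 (adjusted p = 0.0264). Under the mouse block neither call held (adjusted p = 0.137 for Cxcl16 and 0.0778 for Ccl6). Without both libraries of mouse 1 the adjusted p was 0.0667 for Cxcl16 and 0.0968 for Ccl6, and without the filter on low values it was 0.0729 and 0.0586. Each passed in 2 of 9 fits with a library left out. Cxcl16 passed without injected mouse 3 or uninjected mouse 1, and Ccl6 without injected mouse 2 or uninjected mouse 1. Zmynd15 was at 1.64 ± 0.908 on injected (n = 4) and 0.555 ± 0.167 on uninjected sides (n = 5; SD), which did not pass (adjusted p = 0.313).

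The GFP count also depended on single libraries. Of the 6 calls, 3 remained without injected mouse 1 or 4, or without uninjected mouse 2, 3 or 5, and also without both libraries of mouse 1, the mouse with pituitary transcripts. Under the mouse block 2 remained, Ccl5 and Cxcl10. Without any one library Ccl5, Cxcl9 and Cxcl10 stayed called.

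**Figure D2:**
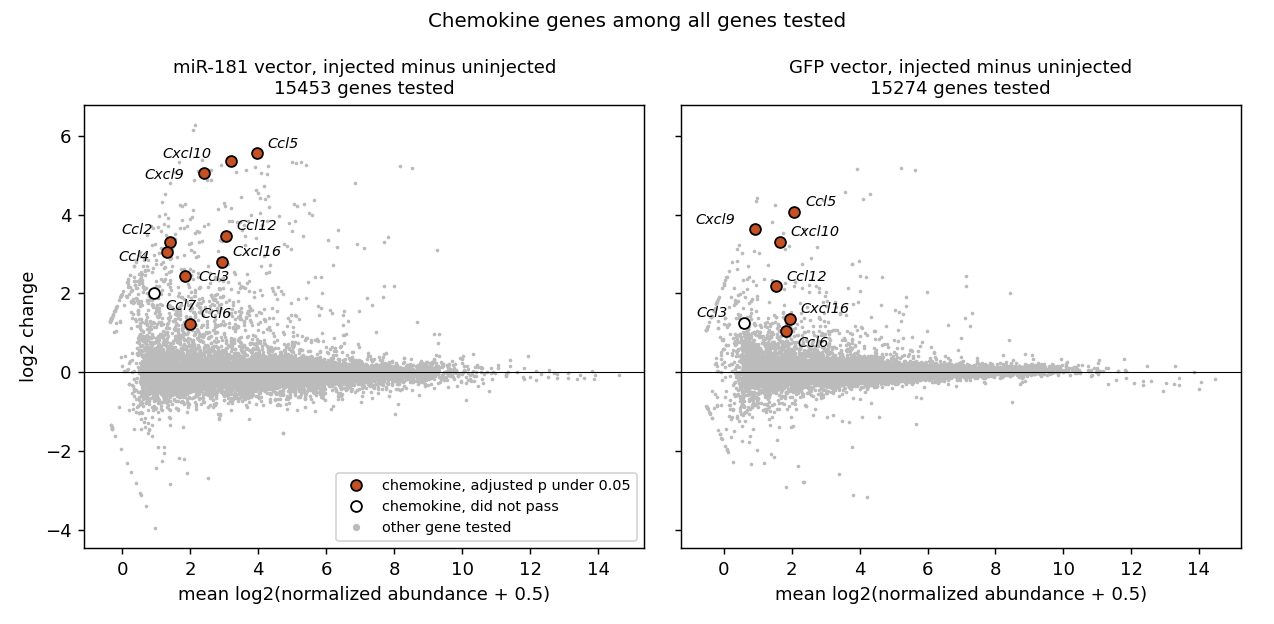
Log2 change, injected minus uninjected side, of each gene tested (vertical axis) against its mean log2(abundance + 0.5) over the libraries of the comparison (horizontal axis), for the miR-181 vector (left) and the GFP vector (right). Filled circles are chemokine genes that passed, open circles those that did not (Ccl7 on the left at 2.0, Ccl3 on the right at 1.26), and grey points are the other genes tested.

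The order of the members by mean level was alike on injected sides. Ccl5 had the highest mean in both sets, followed by Cxcl10, Cxcl9, Ccl12 and Cxcl16. The means were 128 ± 91.8, 72.4 ± 46.0, 32.5 ± 17.6, 30.4 ± 15.9 and 21.1 ± 9.51 on injected sides of miR-181 mice (SD, n = 3), and on injected sides of GFP mice 20.3 ± 5.84, 13.8 ± 12.9, 8.23 ± 4.07, 7.36 ± 5.0 and 6.31 ± 2.3 (SD, n = 4). Mean ± SD overlapped between all neighbours in this order in both sets. Single GFP mice differed in the order. Cxcl10 was above Cxcl9 in mouse 1, the mouse with pituitary transcripts (32.9 against 10.1), and in mouse 3 (5.82 against 2.55). It was below Cxcl9 in mice 2 and 4 (6.39 against 8.27, and 10.2 against 11.9). Ccl12 was above Cxcl16 in mice 1 and 3 and below it in mice 2 and 4. Below them in miR-181 mice came Ccl3 at 9.26 ± 6.0, Ccl2 at 8.83 ± 4.86, Ccl4 at 7.75 ± 5.25, Ccl6 at 5.63 ± 0.748 and Ccl7 at 3.93 ± 2.39, which also overlapped. In GFP mice Ccl6, at 5.0 ± 1.54, came next and overlapped Cxcl16. Ccl3, at 2.0 ± 0.675, lay below every Ccl6 value on the injected sides and overlapped Ccl2 and Ccl4, and Ccl7 was the lowest.

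The make-up of the chemokine transcripts differed between the sides. The summed abundance of the 10 genes was 134, 513 and 314 on the injected sides of miR-181 mice 1 to 3, against 11.9, 9.67 and 15.5 on their uninjected sides. In GFP mice it was 99.0, 47.5, 43.3 and 77.9 on injected sides, against 11.5, 5.86, 7.66, 7.29 and 7.97 on uninjected sides. Ccl5 made up between 33.8% and 44.7% of the sum on injected sides of miR-181 mice, and between 9.47% and 22.1% on uninjected sides. In GFP mice its share ran from 21.3% to 41.8% on injected and from 4.89% to 17.0% on uninjected sides. GFP mouse 1 was the exception among injected libraries, with Cxcl10 first at 33.3%. Ccl6 went the other way, at 1.02% to 4.83% of the sum on injected and 12.3% to 28.1% on uninjected sides of miR-181 mice. Cxcl16 or Ccl6 came first in all uninjected libraries other than that of miR-181 mouse 1, where Ccl5 did.

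**Figure D3:**
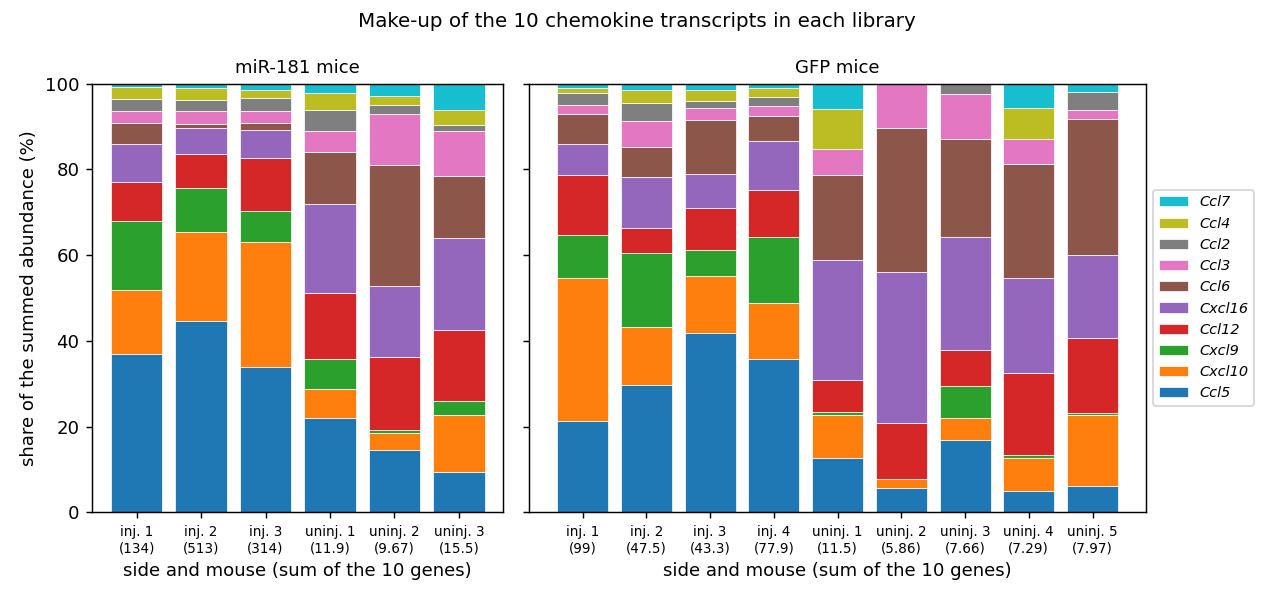
Share of each chemokine gene in the summed abundance of the 10 genes (vertical axis, percent), 1 bar per library, with the side, the mouse number and the sum under each bar. Ccl5, Cxcl10 and Cxcl9 (the lowest 3 segments) take most of each injected bar, and Cxcl16 and Ccl6 take a larger part of the uninjected bars.

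The injected sides ranked alike across members in miR-181 mice, and less so in GFP mice. In miR-181 mice, mouse 2 was the highest injected library for 9 of the 10 genes and mouse 1 the lowest for 9; for Ccl6, the exception to the first, mouse 1 was the highest. In GFP mice, mouse 1 was the highest for 5 genes, mouse 4 for 4 and mouse 2 for 1. Mouse 3 was the lowest for 6, mouse 2 for 3 and mouse 1 for 1. These ranks share the library, its scaling and its dissection, and are given as a description. The ranks of all other genes were not counted.

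Whether the 2 vectors differed was tested on the log2 change of each mouse, 3 miR-181 mice against 4 GFP mice. The estimate was higher with miR-181 for all 10 genes, but 0 of the 10 passed limma at an adjusted p under 0.05, where 0.00647% of the 15451 genes tested were called, which is 1 gene. Of the 10 genes, 5 had an unadjusted p under 0.05, as did 2357 of all genes tested. Every miR-181 mouse changed more than every GFP mouse in Ccl3 and Ccl4, which is 2 of the 10 genes, and this held for 6.96% of all genes tested. Ccl2, Ccl4 and Ccl7 were too low to be tested in GFP mice. In this comparison they passed the filter on low values only through the injected miR-181 libraries.

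**Figure D4:**
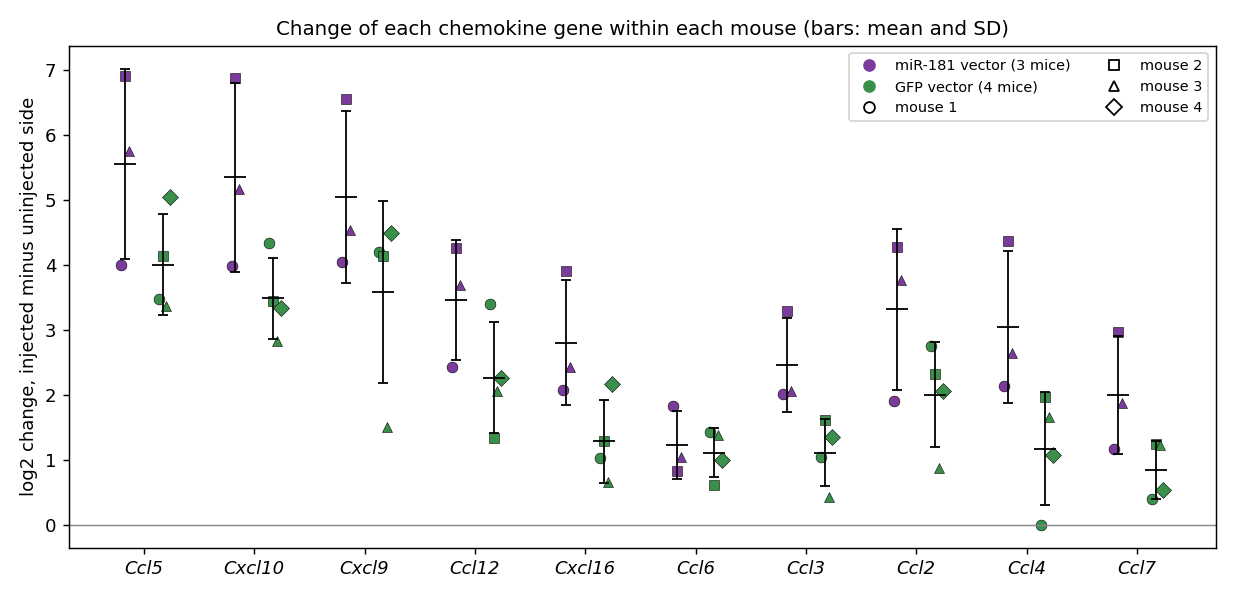
Log2 change of each chemokine gene within each mouse, injected minus uninjected side (vertical axis), for 3 miR-181 mice (purple) and 4 GFP mice (green); the point shape gives the mouse, and bars are the mean and SD. The mice of the 2 sets do not overlap in Ccl3 and Ccl4, and do in the other 8 genes.

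Ccl3 and Ccl4 separated the mice of the 2 sets. Ccl3 changed by 2.01, 3.29 and 2.06 log2 units in miR-181 mice, against 1.04, 1.61, 0.42 and 1.35 in GFP mice, a difference of 1.35 with an interval at 95% confidence from 0.38 to 2.31 (limma adjusted p = 0.206). Ccl4 changed by 2.13, 4.37 and 2.65, against -0.0039, 1.97, 1.65 and 1.08, a difference of 1.88 from 0.38 to 3.37 (adjusted p = 0.243). Ccl4 was listed at 0 on the uninjected sides of GFP mice 2 and 3, where the added 0.5 limits the change that can be seen. The intervals of Cxcl16 (difference 1.52, from 0.41 to 2.64), Cxcl10 (1.86, from 0.41 to 3.31) and Ccl5 (1.55, from 0.03 to 3.07) also lay above 0 before adjustment over all genes, with limma adjusted p of 0.212, 0.234 and 0.322. For Ccl2, Ccl7, Ccl12 and Cxcl9 the differences lay between 1.16 and 1.46 and their intervals included 0. Ccl6 differed by 0.13, from -0.58 to 0.83, and its sign turned without miR-181 mouse 1 (-0.17) or GFP mouse 2 (-0.04). No setting tried brought any member past the threshold, the lowest adjusted p being 0.0705, for Cxcl10.

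Of 28 other chemokine ligands listed, 15 were tested in miR-181 mice, with 3 higher and 0 lower by limma, and 12 in GFP mice, with 1 higher and 0 lower. Of all genes tested, 4.39% were called higher in miR-181 mice and 1.34% in GFP mice. The called ligands, Ccl8, Cxcl13 and Xcl1 in miR-181 mice and Ccl8 in GFP mice, each had an uninjected mean under 1 and passed the filter only through their injected libraries. The median log2 change of those tested was 0.15 in miR-181 mice and 0.05 in GFP mice. Ccl8, in the mouse a ligand of Ccr8, rose in both sets. It had 8.23, 21.4 and 8.22 on injected against 0.659, 0.95 and 1.05 on uninjected sides of miR-181 mice (log2 change 3.11, adjusted p = 0.00817). In GFP mice it had 7.25, 7.87, 4.59 and 3.58 on injected against 0.306, 0, 1.38, 0 and 0 on uninjected sides (3.08, adjusted p = 0.00617; 0.0527 with mouse as a block). Cxcl13, which attracts B cells, rose by 3.25 (adjusted p = 0.0134) in miR-181 mice, with 5.18, 17.8 and 16.7 on injected against 0.795, 0.511 and 1.08 on uninjected sides, and did not pass in GFP mice (0.93, adjusted p = 0.175). Xcl1, a product of activated lymphocytes, rose by 2.50 in miR-181 mice (adjusted p = 0.0243) and was too low to be tested in GFP mice. Of the 3 calls in miR-181 mice, Ccl8 was lost without uninjected mouse 1 or 2. Cxcl13 was lost without these libraries, uninjected mouse 3 or injected mouse 3, and Xcl1 without any of the 3 uninjected libraries or without the filter on low values.

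Of 17 classical receptors, 5 were tested in miR-181 mice, with 4 higher and 0 lower by limma, and 3 in GFP mice, with 0 called (2 at an unadjusted p under 0.05). The share of all genes tested that was called higher was 4.39% in miR-181 mice and 1.34% in GFP mice. The difference between the vectors passed for 0 of 5 (2 at an unadjusted p under 0.05, as were 2357 of all 15451 genes tested). Cx3cr1, the microglial receptor for neuronal Cx3cl1, rose by 0.82 log2 units in miR-181 mice (limma adjusted p = 0.0109), Cxcr6 by 2.63 (0.0266), Cxcr4 by 1.17 (0.0303) and Cxcr3 by 2.54 (0.0319). Cxcr6 and Cxcr3, with uninjected means of 0.249 and 0.115, passed the filter only through their injected libraries. These calls were each lost without any of the 3 uninjected libraries. Those of Cxcr6, Cxcr4 and Cxcr3 were also lost without injected mouse 3 or without the filter on low values, that of Cxcr4 without injected mouse 2, and those of Cxcr6 and Cxcr3 without the intensity trend. Ccr2 had 0.745, 1.88 and 1.47 on injected against 0.42, 0.254 and 0.602 on uninjected sides, a mean too low to be tested, and Ccr1 stayed at 0.517 or less in all 15 libraries.

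In GFP mice Cxcr3 and Cxcr6 were too low to be tested. Cxcr3 had 0.846, 1.29, 0.813 and 1.32 on injected against 0.204, 0, 0, 0 and 0.132 on uninjected sides. Cxcr6 had 0.918, 0.669, 0.735 and 0.892, against 0.0616, 0.0699, 0, 0.15 and 0. Neither overlapped between the sides. Every injected library lay above every uninjected library in 3.29% of all genes tested in GFP mice, which leave out Cxcr3 and Cxcr6.

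**Figure D5:**
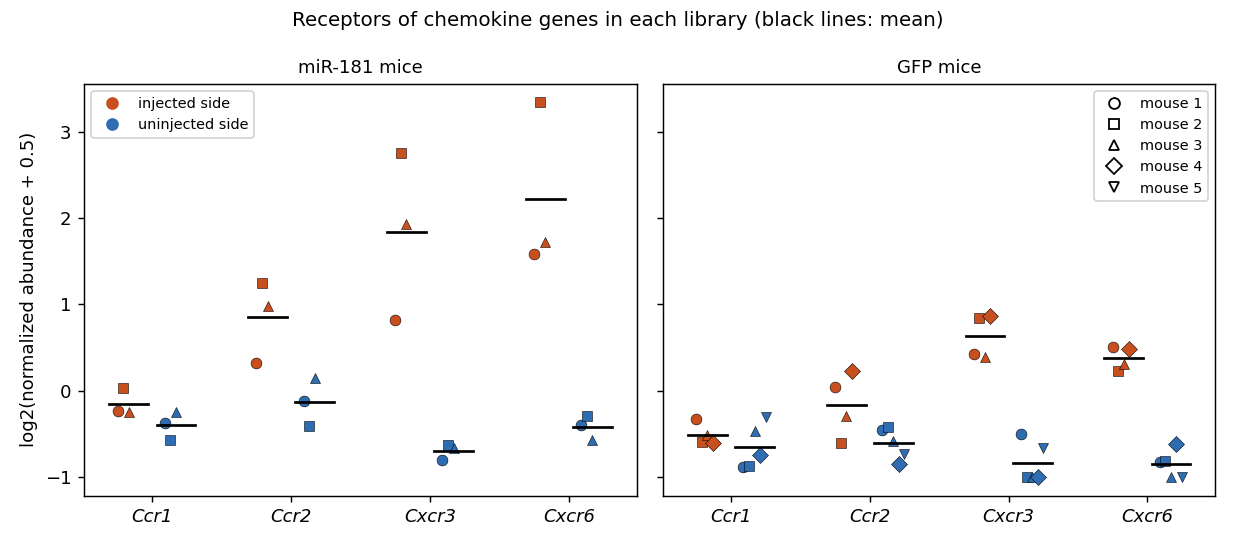
Level of 4 receptors of the chemokine genes in each library, as log2(abundance + 0.5), for miR-181 mice (left) and GFP mice (right); orange points are injected sides, blue points uninjected sides, the point shape gives the mouse, and black lines are means. Cxcr3 and Cxcr6 are near an abundance of 0 on uninjected sides and higher on every injected side.

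Genes that clear or cut chemokines did not pass. Of 5 atypical receptors, which take up chemokines without signalling, 3 were tested in each set and 0 were called; Ackr1 was at 45.8 ± 2.24 on injected and 49.3 ± 5.15 on uninjected sides of miR-181 mice (SD, n = 3 each). Of 6 proteases, which include Adam10 and Adam17, the enzymes that release Cxcl16 from the membrane, 5 were tested in miR-181 mice and 4 in GFP mice, and 0 were called by limma. At an unadjusted p under 0.05 there were 0 atypical receptors in either set, 2 proteases in miR-181 mice and 0 in GFP mice. The 2 were Dpp4 (log2 change 0.91, limma adjusted p = 0.066) and Adam17 (0.39, adjusted p = 0.082). Their injected libraries lay above all uninjected ones, as in 16.0% of all genes tested, and the other proteases tested overlapped. The difference between the vectors passed for 0 of 5 proteases (2 at an unadjusted p under 0.05, as were 2357 of all 15451 genes tested).

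Of 15 inducers, which comprise cytokines, interferon-related transcription factors and NF-kB subunits, 10 were tested in each set, with 4 higher in miR-181 mice and 2 in GFP mice by limma, and 0 lower, where 4.39% and 1.34% of all genes tested were called higher. Irf1, an interferon-induced transcription factor, had 35.7, 78.6 and 50.1 on injected against 7.06, 7.6 and 7.86 on uninjected sides of miR-181 mice. In GFP mice it had 18.8, 14.4, 11.7 and 15.2 on injected against 10.8, 6.82, 4.85, 7.5 and 6.98 on uninjected sides, and neither set overlapped. With injected libraries higher, this held for 16.0% of all genes tested in miR-181 mice and 3.29% in GFP mice. Irf1 rose by 2.72 log2 units in miR-181 mice (limma adjusted p = 0.00398), whichever library was left out, and by 1.0 in GFP mice (0.0376), and Irf9 by 2.07 (0.0153) and 0.76 (0.0174). Irf7 and Stat2 rose in miR-181 mice, by 4.05 (adjusted p = 0.0147) and 1.86 (0.0129), and did not pass in GFP mice (0.0504 and 0.164). In miR-181 mice, Irf7, Stat2 and Irf9 were each lost without injected mouse 3 or any of the 3 uninjected libraries, and Irf7 and Irf9 also without the filter on low values. In GFP mice, Irf1 held in 2 of 9 fits with a library left out, without injected mouse 3 or uninjected mouse 1, and did not pass without the filter or the intensity trend. Irf9 was lost without uninjected mouse 3 or 5. The difference between the vectors passed for 0 of the 10 (4 at an unadjusted p under 0.05), with Irf1 closest at 1.73 (adjusted p = 0.0769).

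Marker lists of other cell types are given here beside the chemokine values. For comparison, 4.39% of all genes tested were called higher in miR-181 mice and 1.34% in GFP mice. At an unadjusted p under 0.05, 1971 of 15453 genes were higher in miR-181 mice and 1044 of 15274 in GFP mice. Of 8 microglia markers, which include Cx3cr1, 6 rose in miR-181 mice and 5 in GFP mice by limma, and their summed abundance was 835 to 1380 on injected against 402 to 423 on uninjected sides of miR-181 mice, and 541 to 687 against 304 to 403 in GFP mice. Of 11 T and natural killer cell markers, 8 of 10 tested rose in miR-181 mice and 0 of 3 in GFP mice (2 at an unadjusted p under 0.05). Of the 8, 7 had an uninjected mean under 1 and passed the filter only through their injected libraries. The sum over this list was 40.1, 148 and 66.1 on the injected sides of miR-181 mice 1 to 3, with mouse 2 highest as for most chemokines, against 12.7 to 17.6 on uninjected sides. In GFP mice it was 25.8 to 30.9 on injected against 9.23 to 20.1 on uninjected sides. Of 9 monocyte and perivascular macrophage markers, 2 of 6 tested rose in miR-181 mice (sums 23.8 to 77.3 against 10.3 to 13.9) and 0 of 5 in GFP mice (2 at an unadjusted p under 0.05; 12.2 to 24.2 against 6.56 to 11.7, with Plac8 and Chil3 at 0 in every uninjected library). Of 6 B and plasma cell markers, 3 of 4 tested rose in miR-181 mice (38.6 to 182 against 3.38 to 8.96) and 1 of 2 in GFP mice (9.04 to 50.6 against 1.11 to 3.82). In miR-181 mice 1 of the 2 called monocyte and macrophage markers and 2 of the 3 called B and plasma cell markers had an uninjected mean under 1, as did the 1 B and plasma cell marker called in GFP mice.

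Neutrophil markers were near 0. None of the 6 could be tested, and their sum was 0.469 to 0.868 on injected against 0.249 to 0.999 on uninjected sides of miR-181 mice, and 0 to 1.61 against 0 to 0.578 in GFP mice, where Ly6g, Retnlg and Camp were at 0 in every injected library. Of 5 astrocyte markers, 2 rose in miR-181 mice (sums 1300 to 1670 against 915 to 1040) and 1 in GFP mice (854 to 1050 against 667 to 840). The shares of all genes tested that were called higher were 4.39% and 1.34%. Of 5 endothelial, 4 oligodendrocyte and 6 dopamine neuron markers, 0 were called in either set; 1 dopamine neuron marker in miR-181 mice and 2 oligodendrocyte markers in GFP mice had an unadjusted p under 0.05. Of 3 serotonin neuron markers, 3 were tested in miR-181 mice and 0 in GFP mice. Of 4 pituitary markers, 1 was tested in miR-181 mice and 4 in GFP mice. Among those tested, 0 were called, with 0 at an unadjusted p under 0.05. The summed dopamine neuron markers were 1210, 531 and 834 on the injected sides of miR-181 mice 1 to 3, against 1200, 1190 and 833 on their uninjected sides, so the injected library highest in most chemokines was the lowest in these. The part of any of these cell types in the chemokine changes was not tested.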

How the data were processed

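Substantia nigra RNA of 15 libraries was sequenced after polyA selection with a strand-keeping kit, per the labels' protocols. Reads were quantified with kallisto 0.43.1 and sleuth 0.30.0 on GRCm38, per the submitters' processing notes. The deposited unit is not named and was taken to be a signal: TPM after division by 1 size factor for each library, inferred from library sums between 970505 and 1040288; the planned test, which assumed normalized abundances, was kept. The authors deposited the miR-181 and GFP tables as separately normalized sets. Each had 56305 rows, of which 36660 held values; rows repeating a symbol and its values (396 and 403) were left out. Depth is unknown, so no counting interval is given.

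The comparisons used limma 3.58.1 (R 4.3.3) on log2 values after adding 0.5. The variance followed an intensity trend, p-values were adjusted by Benjamini-Hochberg over all genes tested with a threshold of 0.05, and genes whose mean fell under 1 were not tested. The difference between vectors used the log2 change per mouse. All 3 fits were tested on simulated data, with noise drawn independently for each gene and library. Effects shared by a whole library or mouse were not simulated. Promoters, motifs and shared words of 31 bases were read with Python 3.11.15, numpy 2.4.6, pandas 2.3.3 and scipy 1.17.1, and figures drawn with matplotlib 3.10.9. Gene positions are those of GENCODE M21.

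Per the labels, both sides of a mouse come from 1 animal, which is why the numbers pair them. Across genes, the distance from the group mean correlated, injected with uninjected, by 0.183, 0.140 and 0.257 for the miR-181 animals and by 0.192, 0.0947, 0.0177 and 0.122 for the 4 GFP animals with both sides. The main fits had no block, and mouse as a block was an alternative. Others were 2 pseudocounts, 2 filters, 2 normalizations, no intensity trend and each library or mouse left out. Single mice are the replicates, 1 library per side. The members and lists were chosen with earlier results of these data known. All members are named, with the called genes of each list (up to 4 by p); Cxcr3, Ccr1, Ccr2 and some genes that did not pass are named beyond this rule, as receptors of the members or as examples, after values were seen. Some genes of these lists are not reported here, and the list counts leave them out.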

Additional observations from a re-analysis of the deposited data

Results flagged for a closer look

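Among 20 sets of 4 or 5 libraries examined for a library far from the rest, 2 stood out, where chance marks about 1 in 20. Cxcl10 was 32.9 on the injected side of GFP mouse 1, with 5.82 to 10.2 in the other injected GFP libraries. Cxcl9 was 0.574 on the uninjected side of GFP mouse 3, with 0 to 0.0795 in the other uninjected GFP libraries. Without either library, both genes stayed called in GFP mice.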

How the results depend on the processing

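Of the chemokine genes, 9 were called in miR-181 mice and 6 in GFP mice. With each library left out in turn, 2 to 10 were called in miR-181 mice and 3 to 6 in GFP mice. In GFP mice 2 were called with mouse as a block, 2 at a mean of at least 5, where 2 were tested, and 3 without both libraries of mouse 1. Of all genes, 908 were called in miR-181 mice, against 315 without the filter on low values, 449 without the intensity trend and 117 to 1924 with a library left out. In GFP mice 206 were called, against 136 at a mean of at least 5, 124 with mouse as a block and 108 to 255 with a library left out. For the difference between vectors 1 gene was called, against 0 without the filter, 4 at a mean of at least 5, 3 without the trend and 0 to 306 with a mouse left out, while 0 chemokine genes were called in every setting. With a mouse left out, the difference of Ccl6 ran from -0.17 (without miR-181 mouse 1) to 0.32 (without miR-181 mouse 2), and it was -0.04 without GFP mouse 2. With mouse as a block in miR-181 mice, 8 chemokine genes and 718 of all genes were called. The cause of these changes was not tested. Where a replicate was left out, the remaining libraries were assumed to vary alike. Values have no depth, and members near 0 are limited by the added 0.5.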

Other observations

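A few low genes of the lists, chosen after their values were seen, had more on injected than on uninjected sides but a mean too low for a test. Ifng, the interferon that induces Cxcl9, had 0.42, 1.63 and 0.54 on the injected sides of miR-181 mice, against 0.0536, 0 and 0 on their uninjected sides, and was listed at 0 in all 9 GFP libraries. Tnf, a cytokine that acts through NF-kB, had 1.48, 2.39 and 1.56 on the injected sides of miR-181 mice, against 0.043, 0.106 and 0 on their uninjected sides. In GFP mice Tnf had 0.45, 0.112, 0.164 and 0.21 on injected sides, against 0, 0.0821, 0, 0 and 0 on uninjected sides. The Cxcl11 transcript had 0.377, 1.59 and 1.53 on injected against 0.081, 0.0326 and 0.0461 on uninjected sides of miR-181 mice. Its protein was not measured, and the transcript stayed far below those of Cxcl9 and Cxcl10. In GFP mice it overlapped between the sides, with at most 0.249 on injected and 0.185 on uninjected sides.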
